A study of Mus musculus with 6 samples.

Results

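The SR proteins and the heterogeneous nuclear ribonucleoproteins (hnRNPs) were examined as all genes whose symbol in the deposited count table starts with Srsf or Hnrnp. These were 29 of 23453 gene rows, 11 Srsf genes and 18 Hnrnp genes, and no row was dropped for the ending -ps. All 29 passed the filter on low counts and were among the 12423 genes tested. The libraries came from spleen cells of wild-type OT1 mice of the C57BL/6 strain, a line with a transgenic T cell receptor that recognises an ovalbumin peptide, and the submitters name the cells cytotoxic T lymphocytes. All cultures received OVA peptide for 48 hours, and then either FCM (3 libraries titled Vehicle) or TCM (3 libraries) for 8 hours. The labels do not spell out FCM or TCM, give no age and no sort of the cells, and do not say whether replicates came from separate mice, so the spread behind each p-value may be technical.

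The 2 deposited tables title the groups in opposite ways. In 6 of 6 columns, the normalized values were the counts of the same-numbered library of the opposite title times 1 constant. Groups are named here by the count table, and by the normalized table's titles every rise given here is a fall and every fall a rise. Total counts ran from 17166687 to 25789381 per library. The cells were not T cells alone: summed over 12 T cell markers, the level was 1283 to 1401 CPM (counts scaled to a common depth with edgeR's trimmed-mean factors) in Vehicle and 1369 to 1408 in TCM, while 12 neutrophil markers summed to 8753 to 13380 CPM in Vehicle and 1529 to 2627 in TCM. Sums for B cell markers were 1842 to 2213 against 1046 to 1234 CPM, and for macrophage markers 529 to 634 against 149 to 151. Dendritic cell markers summed to 30.6 to 33.1 against 14.3 to 16.3 CPM, NK cell markers to 15.2 to 19.8 against 10.1 to 14.3, and erythroid and platelet markers to 12.6 to 14.8 against 6.28 to 7.53. The dendritic cell marker Cd209a, the NK cell marker Klra4 and the erythroid marker Hba-a2 had 0 counts in all 6 libraries. Of tested markers, 11 of 12 fell for neutrophils, 7 of 9 for macrophages (1 rose), 5 of 8 for B cells, 3 of 5 for dendritic cells, 2 of 4 for NK cells and 5 of 6 for erythroid cells and platelets, while 2 of 12 T cell markers rose and 2 fell. Of all tested genes, 28.8% rose and 30.0% fell. Some of these markers met the filter on low counts only through their Vehicle libraries, the group where they are high, so their calls are not read as support. Among them were Clec9a, Siglech, Elane, Retnlg, Cxcr2 and Alas2. The defining T cell genes were present. On the log2 scale Zap70 fell by 0.85 ± 0.12 and Cd8a by 0.67 ± 0.12, while Cd3d rose by 0.76 ± 0.21 and Cd28 by 0.51 ± 0.16. Cd8b1 differed by 0.06 without passing, and the median over the 12 T cell markers was 0.05. In such bulk RNA, fewer cells of a type and less RNA per cell cannot be told apart. The part of the cell mixture in the values below was not tested.

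SR proteins and hnRNPs bind pre-mRNA as it is made and set which splice sites the spliceosome uses. SR proteins join RNA recognition motifs to a tail rich in arginine and serine (RS domain); kinases phosphorylate that tail, and the proteins mostly favour the use of nearby exons. hnRNPs coat nascent RNA through RNA recognition, KH or RGG motifs, often oppose exon use, and also serve RNA export, stability and translation. In T cells, splicing choices of this kind shape the receptor phosphatase CD45 after activation, where hnRNP L is a known repressor of variable exons. Many genes of both families also splice their own RNA into forms that nonsense-mediated decay removes, so that a protein can limit its own RNA.

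The coding sequence shows what sets the families apart. The stretches of 90 bases printed next were chosen because each carries the densest run of the feature in a member that passed the test. They come from GENCODE M21 coding transcripts (GRCm38, the assembly also called mm10) and read 5′ to 3′. Capitals mark codons of an arginine next to a serine in the 4 SR genes, and of arginine, glycine, glycine (RGG) in Hnrnpu and Hnrnpk.
Srsf12: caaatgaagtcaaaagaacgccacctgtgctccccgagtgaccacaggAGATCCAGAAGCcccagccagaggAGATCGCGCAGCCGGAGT
Srsf9: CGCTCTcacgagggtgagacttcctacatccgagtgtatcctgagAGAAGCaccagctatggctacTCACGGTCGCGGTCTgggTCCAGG
Srsf6: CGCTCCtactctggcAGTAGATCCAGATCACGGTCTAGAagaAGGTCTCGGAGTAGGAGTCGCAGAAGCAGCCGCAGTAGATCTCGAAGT
Srsf11: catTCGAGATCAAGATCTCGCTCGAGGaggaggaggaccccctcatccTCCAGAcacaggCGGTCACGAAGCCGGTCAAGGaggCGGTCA
Hnrnpu: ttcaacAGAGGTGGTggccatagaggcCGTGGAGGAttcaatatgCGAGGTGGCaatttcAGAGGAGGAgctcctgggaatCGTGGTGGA
Hnrnpk: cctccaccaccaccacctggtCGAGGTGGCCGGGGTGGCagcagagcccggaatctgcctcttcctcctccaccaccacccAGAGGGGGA
The Srsf6 window (codons 189 to 218) held 21 of the 74 arginine-serine pairs encoded in its 339 codons, whereas Srsf9 (codons 172 to 201) encoded 9 pairs in 222 codons, the fewest of the SR genes. All 11 SR genes and none of the 18 hnRNP genes encoded at least 4 such pairs per 100 residues, a density reached by 0.595% of 11761 tested protein-coding genes. At least 3 RGG motifs were encoded by 10 of 18 hnRNP genes and 0 of 11 SR genes, against 0.808% of tested coding genes. A transcript annotated as a target of nonsense-mediated decay was listed for 9 of 11 SR genes (81.8%) and 8 of 18 hnRNP genes (44.4%), against 29.2% of tested coding genes. These are properties of the annotation, and the deposited counts per gene do not separate such transcripts from the coding ones.

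Of the 29 genes, 5 were higher in TCM, 5 were lower and 19 did not pass the test (edgeR quasi-likelihood test, Benjamini-Hochberg adjusted p under 0.05 over all 12423 genes). That is 17.2% each way, below the 28.8% of all tested genes that were higher and the 30.0% that were lower. Groups did not overlap in 13 of 29 members (44.8%), against 64.2% of all tested genes. The median log2 difference was 0.06 over the members, 0.06 over SR genes and 0.11 over hnRNP genes, against -0.02 over all genes. By family, 2 SR genes rose and 2 fell, and 3 hnRNP genes rose and 3 fell. Of the SR rises, Srsf12 met the filter on low counts only through its TCM libraries. Scaled by library totals alone, the median of all genes moved to -0.23 and that of the members to -0.16, the members that rose numbered 3, and over all genes 2364 were higher and 3965 lower in place of 3584 and 3726.

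**Figure D1:**
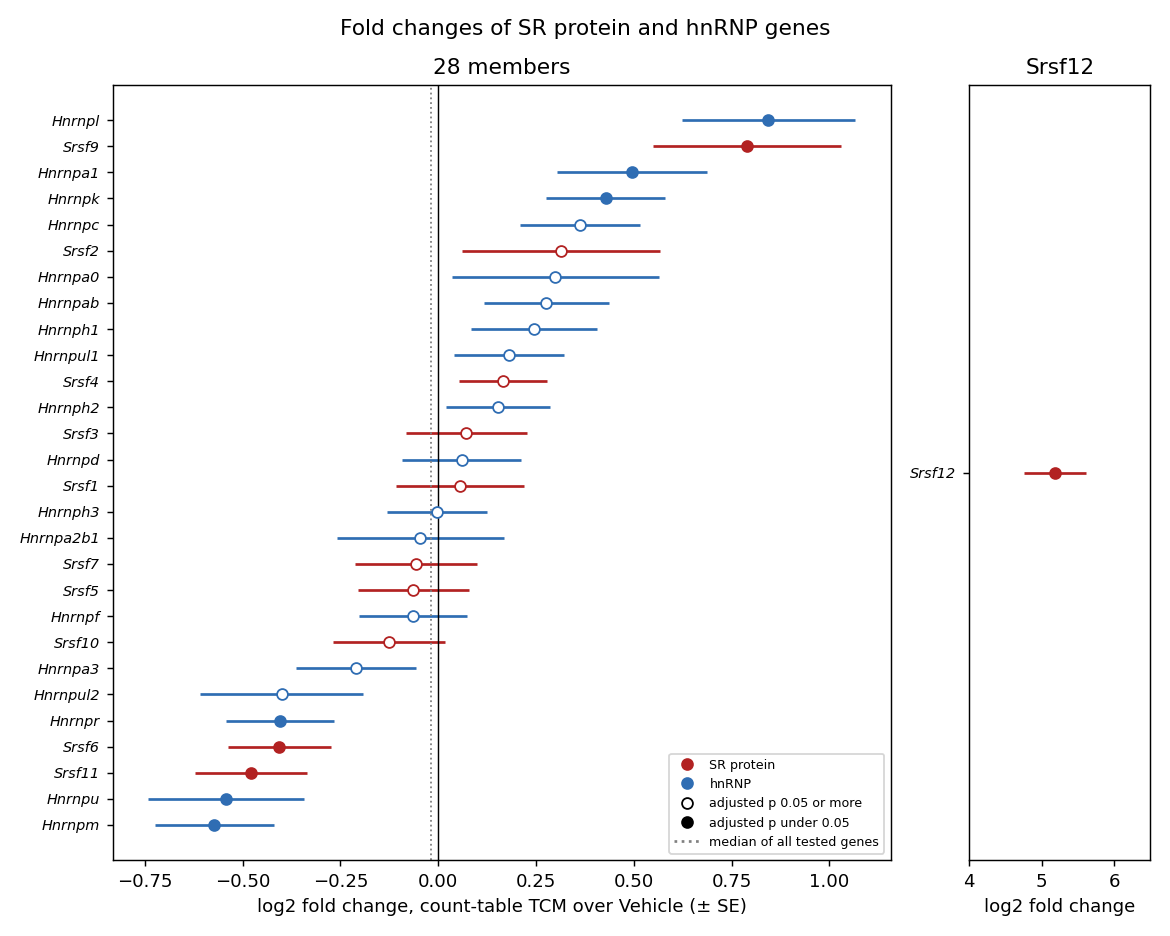
Log2 difference (count-table TCM minus Vehicle) of each of the 29 members, with bars of 1 standard error from the edgeR fit and Srsf12 on an axis of its own; filled points passed the test, and the dotted line is the median of all tested genes. Except for Srsf12 at 5.18, the members lie between -0.57 and 0.84.

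Which family's sums overlapped between groups depended on the scaling. In CPM, SR genes together reached 3262, 3486 and 3532 CPM in Vehicle replicates 1 to 3 and 3095, 3868 and 4061 CPM in TCM. hnRNP genes together reached 6759, 6460 and 6410 CPM in Vehicle and 7076, 7614 and 7716 CPM in TCM. In CPM the SR sums overlapped and the hnRNP sums were higher in TCM. As a share of a library's total count, SR genes held 0.384%, 0.361% and 0.364% in Vehicle and 0.339%, 0.334% and 0.341% in TCM. hnRNP genes held 0.796%, 0.670% and 0.661% in Vehicle and 0.775%, 0.658% and 0.648% in TCM. By that share the SR sums were lower in TCM without overlap, and the hnRNP sums overlapped and were lower within each replicate number. No test was run on these sums.

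Among the SR proteins, Srsf12 stood far from the rest. Srsf12 (chr4:33208991-33233340, plus strand) encodes the SR protein closest to Srsf10. It had 1 count in each Vehicle library and 39, 23 and 25 counts in TCM. The totals of 3 and 87 counts gave a ratio of 41.7 with an exact 95% interval of 13.8 to 206, which covers counting error only, and the edgeR log2 difference was 5.18 ± 0.42 (adjusted p = 1.59e-05; 1.38e-21 to 1.88e-04 over 16 alternatives). Srsf12 met the filter on low counts only through its TCM libraries, the group where it is high, so these p-values are not read as support. Its level stayed low even in TCM, 0.882 CPM per kilobase, the lowest of all 29 members in both groups. Of its neighbours on chromosome 4, Rragd rose by 0.72 (edgeR adjusted p = 0.0192) and Pnrc1 rose by 0.50 (0.0373) on the log2 scale, where 28.8% of all tested genes rose. Rngtt differed by 0.09, 4933421O10Rik by 0.02 and Ube2j1 by -0.24 without passing. Pm20d2 had 1 to 6 counts in every library and Gabrr1 0 to 2. Gabrr2 had 5, 2 and 7 counts in Vehicle and 2, 0 and 0 in TCM. Pm20d2, Gabrr1 and Gabrr2 did not meet the filter and were not tested. Srsf10 itself differed by -0.13 and did not pass.

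Srsf9 was the other SR gene that rose. It encodes a close relative of Srsf1 with a short RS tail, visible in the sequence above, and lies at chr5:115327177-115333080, plus strand. Its level was 103, 153 and 151 CPM in Vehicle and 161, 253 and 289 CPM in TCM. All TCM libraries lay above all Vehicle libraries, and replicate 1 was the lowest of both groups. The log2 difference was 0.79 ± 0.24 (edgeR adjusted p = 0.0194, from 1.11e-11 to 0.170 over 16 alternatives). It did not pass without Vehicle replicate 1, TCM replicate 2 or TCM replicate 3 (adjusted p 0.0578 to 0.0721), nor after removal of the trend on transcript length (log2 difference 0.42). Srsf1, the prototype SR protein, differed by 0.06 and did not pass.

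Srsf6 and Srsf11 fell. Srsf6 (chr2:162931528-162937121, plus strand) encodes an SR protein with a long RS domain. It measured 354, 358 and 364 CPM in Vehicle and 260, 273 and 279 CPM in TCM with the groups well apart. It fell by 0.41 ± 0.13 on the log2 scale (edgeR adjusted p = 0.0254, from 1.56e-05 to 0.0955 over the alternatives), a call lost without Vehicle replicate 2 or 3 or TCM replicate 2 or 3 (0.0723 to 0.0955) and with the GC trend removed (log2 difference -0.32, adjusted p = 0.0597, or 0.00564 with the block as well). Srsf11 (chr3:158010473-158036639, minus strand) encodes a protein that meets the U2 auxiliary factor at the start of spliceosome assembly. It measured 136, 115 and 112 CPM in Vehicle and 98.0, 83.3 and 79.3 CPM in TCM. Here too no TCM library reached the lowest Vehicle library, and it fell by 0.48 ± 0.14 (edgeR adjusted p = 0.0177, from 1.86e-05 to 0.0789; 0.0770 and 0.0789 without TCM replicate 2 or 3).

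The other 7 SR genes did not pass the test, with log2 differences from -0.13 to 0.31. They were Srsf10 (-0.13), Srsf5 (-0.06), Srsf7 (-0.06), Srsf1 (0.06), Srsf3 (0.07), Srsf4 (0.17) and Srsf2 (0.31). Srsf4, Srsf5 and Srsf6 form a subfamily of like proteins, of which Srsf6 alone passed; whether the 3 differ from each other was not tested. Srsf2 measured 741, 1103 and 1085 CPM in Vehicle and 846, 1302 and 1493 CPM in TCM. Within each replicate number the TCM library was higher, but the groups overlapped, as TCM replicate 1 lay below Vehicle replicates 2 and 3.

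Among the hnRNPs, Hnrnpl rose most. Hnrnpl (chr7:28808541-28822266, plus strand) encodes the hnRNP that binds CA-rich RNA and represses variable exons of CD45. It measured 524, 678 and 689 CPM in Vehicle and 827, 1232 and 1336 CPM in TCM. Every TCM library lay above every Vehicle library, by a mean of 1.80-fold. The log2 difference was 0.84 ± 0.22 (edgeR adjusted p = 0.0101), and it passed in all 16 alternatives, with adjusted p from 2.76e-13 to 0.0475 and differences from 0.61 to 1.03. Its relative under the older symbol Hnrpll, known for CD45 exon skipping in memory T cells, measured 72.1, 48.1 and 58.4 CPM in Vehicle and 46.8, 46.4 and 45.9 CPM in TCM (-0.36 ± 0.15, edgeR adjusted p = 0.0691) and did not pass.

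Hnrnpk and Hnrnpa1 rose by less. Hnrnpk (chr13:58391142-58403343, minus strand) encodes a KH-domain protein that binds C-rich RNA. It measured 468, 406 and 415 CPM in Vehicle and 631, 565 and 539 CPM in TCM. The groups did not overlap, and the log2 difference was 0.43 ± 0.15 (edgeR adjusted p = 0.0360, from 7.11e-05 to 0.354 over the alternatives); it was lost without Vehicle replicate 2 or 3 or TCM replicate 2 or 3 (0.0572 to 0.137) with no filter on low counts (0.0603) and, at 0.22, under library totals. Its exons overlap those of Rmi1 on the other strand over 330 bases. Hnrnpa1 (chr15:103240432-103246692, plus strand), which encodes a classic antagonist of SR proteins at splice sites, measured 9.03, 6.88 and 5.39 CPM in Vehicle and 11.1, 8.97 and 9.83 CPM in TCM. The highest Vehicle library lay above the lowest TCM library, and the difference of 0.50 ± 0.19 (edgeR adjusted p = 0.0496) did not pass without any 1 library other than Vehicle replicate 1 (0.0674 to 0.162), nor under library totals (0.28, adjusted p = 0.410) or with the length trend removed (0.33, adjusted p = 0.176). Its level per length ranked 28 of 29, and 9 other genes, all pseudogenes, matched at least 300 bases of its transcripts at 95% identity or more. How the authors counted reads that fit several copies is not given in the sources used here, so the level of Hnrnpa1 is uncertain.

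Hnrnpm, Hnrnpu and Hnrnpr fell. Hnrnpm (chr17:33646233-33686860, minus strand), which encodes a GU-rich RNA binder linked to exon skipping, measured 187, 160 and 154 CPM in Vehicle and 131, 103 and 104 CPM in TCM. No TCM library reached the lowest Vehicle library. It fell by 0.57 ± 0.15 on the log2 scale (edgeR adjusted p = 0.0106) and passed in 15 of 16 alternatives, the exception being without TCM replicate 2 (adjusted p = 0.0601). Part of its exons overlaps March2 on the same strand over 1169 bases, and how reads there were counted is not given, so its level is uncertain. March2 was not found under that symbol in the count table, where 27 symbols have the form of a date.

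Hnrnpu (chr1:178321108-178337797, minus strand) encodes a scaffold-attachment protein that binds chromatin and RNA. It measured 659, 508 and 490 CPM in Vehicle and 470, 337 and 330 CPM in TCM, without overlap. It fell by 0.54 ± 0.20 (edgeR adjusted p = 0.0411), but leaving out any 1 library other than TCM replicate 1 gave 0.0602 to 0.162. Hnrnpu has the longest transcript of the members, 7640 bases. With all genes cut by transcript length into 5 equal bins, the median log2 difference went from 0.46 in the shortest bin (median 1004 bases) to -0.37 in the longest (5535 bases), and with that trend removed Hnrnpu differed by -0.20 (adjusted p = 0.427). Its exons overlap those of Cox20 on the other strand over 804 bases. Hnrnpr (chr4:136310942-136359447, plus strand), which encodes a relative of Syncrip, measured 145, 119 and 120 CPM in Vehicle and 105, 96.3 and 89.1 CPM in TCM. Its groups did not overlap either; it fell by 0.40 ± 0.14 (edgeR adjusted p = 0.0320), and without any 1 library other than TCM replicate 1 it did not pass (0.0569 to 0.126).

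**Figure D2:**
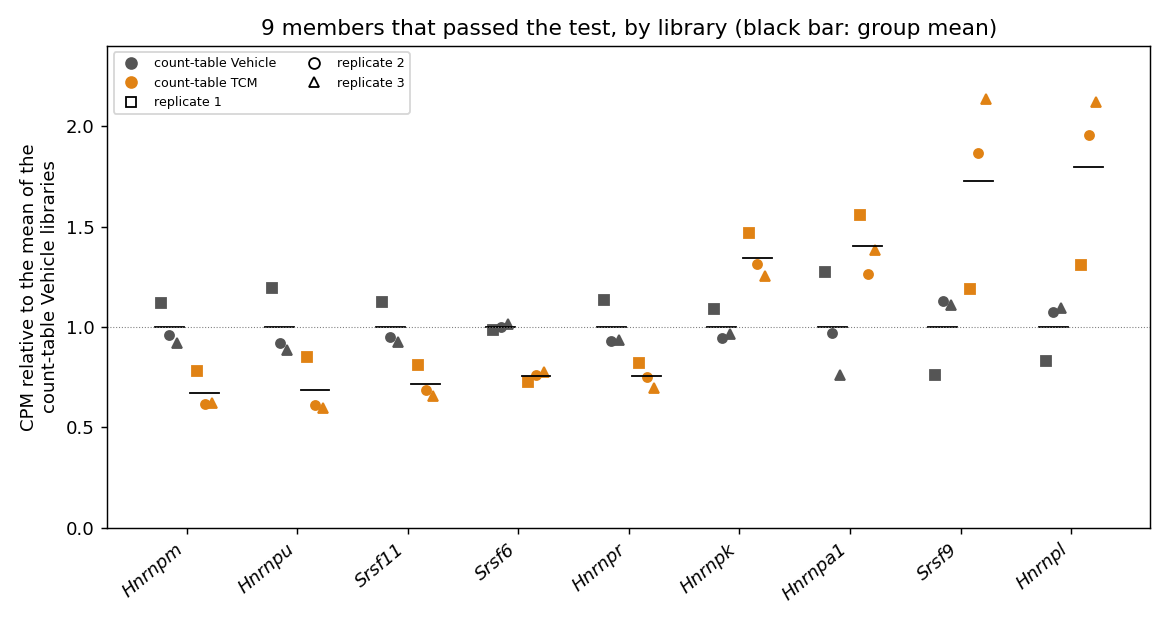
CPM of 9 members that passed the test in each library, divided by the mean of the 3 count-table Vehicle libraries (Srsf12, at 1 count per Vehicle library, is left out); symbols give the replicate number and black bars the group mean. Hnrnpl and Srsf9 reach above 2 times the Vehicle mean in TCM replicate 3, and for Hnrnpa1 the groups overlap.

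The other 12 hnRNP genes did not pass, with log2 differences from -0.40 to 0.36. Below 0 were Hnrnpul2 (-0.40), Hnrnpa3 (-0.21), Hnrnpf (-0.06), Hnrnpa2b1 (-0.05) and Hnrnph3 (-0.0024). Above 0 were Hnrnpd (0.06), Hnrnph2 (0.15), Hnrnpul1 (0.18), Hnrnph1 (0.25), Hnrnpab (0.28), Hnrnpa0 (0.30) and Hnrnpc (0.36). Hnrnpc, whose protein forms the core of the hnRNP particle with A and B proteins, measured 339, 258 and 279 CPM in Vehicle and 384, 372 and 371 CPM in TCM, without overlap (edgeR adjusted p = 0.0679). Hnrnpa3 had 33 other genes and Hnrnpf 10 other genes with near-identical sequence, so their levels are uncertain as well. The same holds for members that passed: Hnrnpk (2 other genes, longest match 1378 bases), Hnrnpr (2, 1745 bases) and Hnrnpm (1, 1149 bases). It also holds for others that did not pass, among them Srsf3 (4, 1298 bases), Srsf4 (1, 1447 bases) and Hnrnph2 (1, 1344 bases). Hnrpdl, an hnRNP D relative under its older symbol and thus no member, rose by 0.36 ± 0.14 (375.7 to 388 CPM in Vehicle, 484 to 497 in TCM, edgeR adjusted p = 0.0467).

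With the replicate number as a block, 10 members were higher and 6 lower, against 36.3% and 37.0% of all tested genes. The added calls were Srsf2 (edgeR adjusted p = 0.0150), Hnrnpc (0.00141), Hnrnpab (0.0243), Hnrnph1 (0.0313) and Hnrnpa0 (0.0366), all higher, and Hnrnpul2 (2.42e-04), lower. Without replicate 1 of either group, 12 members were higher and 6 lower, against 36.3% and 37.9% of all genes tested in that fit. Srsf2, Hnrnpa0 and Hnrnpul2 also passed without TCM replicate 1 alone (adjusted p 0.0464, 0.0262 and 0.00628), and Hnrnpc without Vehicle replicate 1 alone (0.0256).

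The 2 replicate 1 libraries stood apart from replicates 2 and 3 in the same members. Of 28 members (Srsf12 left out for its low counts), 15 were higher in replicate 1 than in the mean of replicates 2 and 3 in both groups and 8 were lower in both. Lowest were Srsf9, Srsf2, Hnrnpa0 and Hnrnpl, which in replicate 1 differed from the others by -0.56 to -0.38 in Vehicle and -0.89 to -0.63 in TCM on the log2 scale. Highest in Vehicle was Hnrnpa2b1 (0.59), the hnRNP that reads RNA sorting signals, and highest in TCM Hnrnpul2 (0.63). Across these 28 genes the replicate 1 differences of the groups had Pearson r = 0.83 and Spearman rho = 0.68. The GC content of the transcripts had r = -0.80 and rho = -0.71 with the Vehicle difference, and r = -0.49 and rho = -0.33 with the TCM difference. In the ribosomal precursor Rn45s lay 11.2% and 11.6% of the counts of the replicate 1 libraries and 16% to 18.9% of those of the others. The part of GC content and of Rn45s in the members' values was not tested beyond the fits named here. These correlations are across genes of the same libraries, which are not independent. With all genes cut by GC content into 5 equal bins, the median Vehicle difference went from 0.31 in the bin of lowest GC to -0.22 in the bin of highest GC. The median TCM difference went from 0.18 to -0.16 over the same bins. Over all tested genes, the replicate 1 deviations from the group means correlated at 0.60 between the groups. Replicate 1 thus stood apart across genes at large, and not in the members alone.

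**Figure D3:**
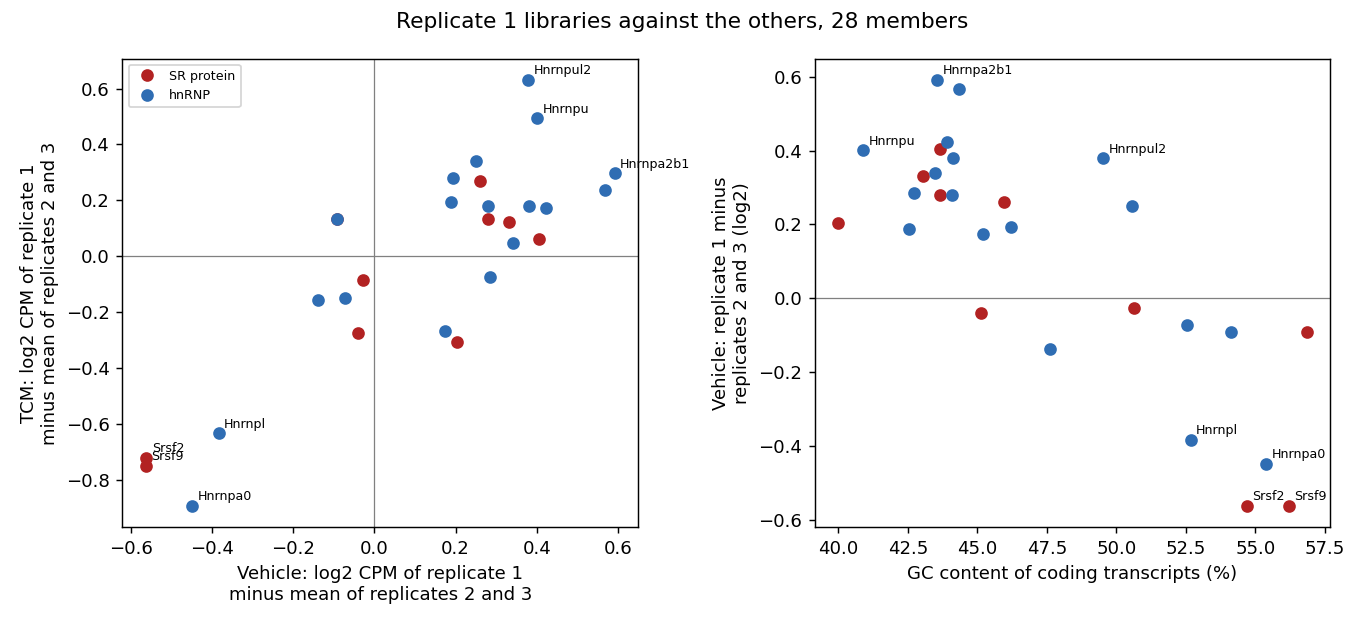
Left, log2 CPM in replicate 1 minus the mean of replicates 2 and 3, count-table Vehicle (x axis) against TCM (y axis), 1 point per member without Srsf12, coloured by family; 15 points lie in the upper right and 8 in the lower left, where the sign is the same in both groups. Right, the Vehicle difference against the GC content of the coding transcripts in percent, with Srsf2, Srsf9, Hnrnpa0 and Hnrnpl at high GC and below 0.

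By mean level per length, in CPM per kilobase of transcript, 3 members led in Vehicle. Srsf2, which acts in constitutive and alternative splicing, measured 460, 684 and 673 in Vehicle and 524, 808 and 926 in TCM. Hnrnpab, a regulator of RNA stability and transport, measured 479, 504 and 504 in Vehicle and 560, 613 and 628 in TCM. Hnrnpa2b1 measured 578, 376 and 391 in Vehicle and 495, 434 and 374 in TCM. The order of these 3 is not settled by the replicates, since their ranges overlap in Vehicle and those of Srsf2 and Hnrnpab also in TCM. Hnrnpd, at rank 4 in Vehicle, measured 347, 392 and 373 there. Its range overlaps that of Hnrnpa2b1, so the place of Hnrnpa2b1 among the leading 3 is not settled either. In TCM Hnrnpa2b1 ranked 4. Hnrnpl ranked 6 of 29 in Vehicle at 294 ± 43.1 (SD, n = 3) and 3 in TCM at 528 ± 126.

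**Figure D4:**
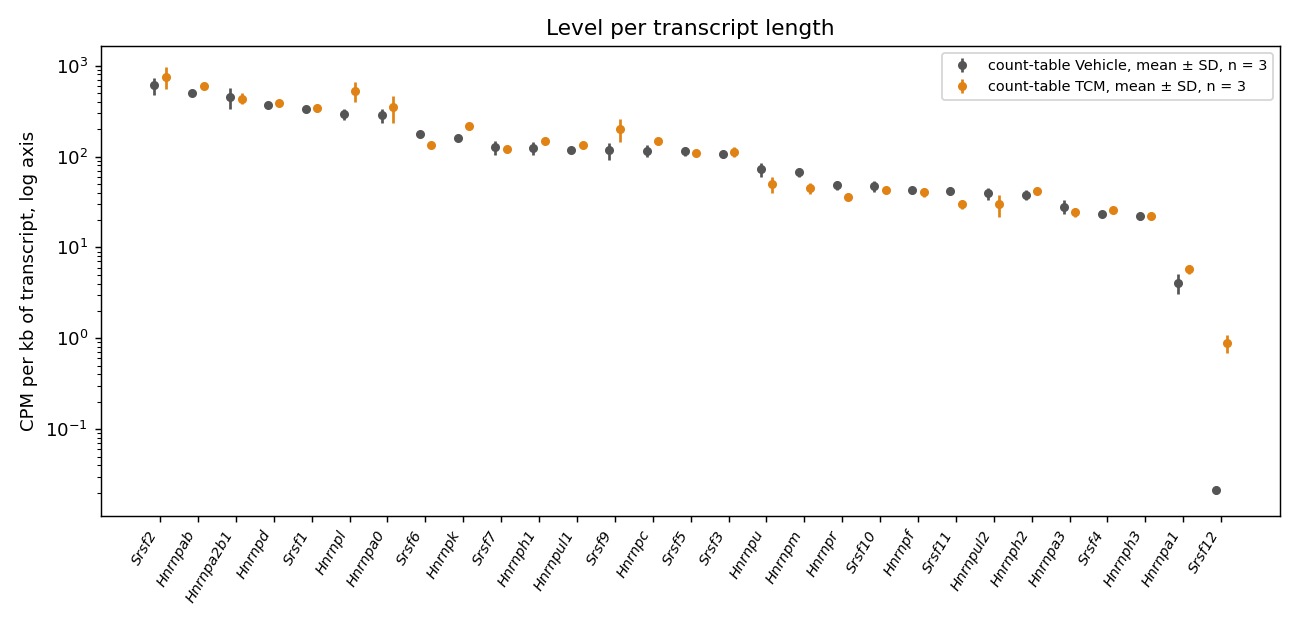
Level of each member in CPM per kilobase of transcript (log axis), mean ± SD of 3 libraries for count-table Vehicle and TCM, ordered by the Vehicle mean. Means run from 0.0215 for Srsf12 in Vehicle to 753 for Srsf2 in TCM.

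Many promoters of the families are rich in the GC box, the letters bound by factors of the Sp family. RefSeq promoter windows (GRCm38.p6, 250 bases before to 50 after a start) were found for 28 of 29 members, with 40 windows. The GC box GGGCGG, read on both strands, stood in 33 of 40 (82.5%), against 35.7% of all 32851 windows. The CCAAT letters stood in 52.5% against 37.4%, CCGGAAG (an ETS core) in 25.0% against 8.9%, CACGTG (an E-box) in 12.5% against 7.2% and TATAAA in 10% against 13.6%, and no motif contains another. By gene, the GC box stood in a window of 23 of 28 members and the ETS core in a window of 6 of 28. The 32851 windows were not limited to genes tested here, and 1 gene can supply several windows. The 120 bases before the start of 1 gene that rose and 2 that fell are shown because they carry the same motif, with GC boxes of either strand in capitals, in the direction of the gene: Srsf9 (chr5:115327057-115327176, plus strand), Srsf6 (chr2:162931388-162931507, plus strand) and Hnrnpu (chr1:178337816-178337935, minus strand).
Srsf9: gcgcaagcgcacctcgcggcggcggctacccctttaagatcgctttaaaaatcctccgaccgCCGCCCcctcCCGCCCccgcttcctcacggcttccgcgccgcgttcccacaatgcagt
Srsf6: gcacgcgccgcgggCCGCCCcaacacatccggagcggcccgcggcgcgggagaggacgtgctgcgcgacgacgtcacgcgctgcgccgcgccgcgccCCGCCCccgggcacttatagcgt
Hnrnpu: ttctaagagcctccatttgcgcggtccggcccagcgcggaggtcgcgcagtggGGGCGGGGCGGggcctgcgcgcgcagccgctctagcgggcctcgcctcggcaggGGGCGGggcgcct
The GC box thus stood before members that rose and members that fell. A match of letters is not a binding site.

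Other genes of the pathway were read from fixed lists. The 20 SR-related genes outside the Srsf symbols include coactivators and speckle scaffolds: 14 fell, 1 rose and 5 did not pass, with a median log2 difference of -0.69 (70.0% lower against 30.0% of all genes). Son, a nuclear speckle scaffold, measured 300, 359 and 302 CPM in Vehicle and 146, 145 and 173 CPM in TCM and fell by 1.05 ± 0.15 (edgeR adjusted p = 4.07e-04). Srrm2, its partner in the speckle, fell by 0.91 ± 0.16, Luc7l3, a U1-associated protein, fell by 0.90 ± 0.16, and Rnps1, of the exon junction complex, rose by 0.29 ± 0.11. Rnps1 did not pass without any 1 library other than TCM replicate 1, and 11 to 16 of the 20 fell with 1 library left out. In such fits 22.7% to 31.9% of all genes rose and 22.3% to 33.2% fell. With the length trend removed, 10 of the 20 fell, against 27.4% of all genes, and Rnps1 did not pass. Sfrs18, another gene of SR-like sequence under an older symbol, fell by 0.90 ± 0.18. Whether these genes and the members differ was not tested.

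Of 14 genes for kinases, phosphatases and import of SR proteins, 2 rose (14.3%, against 28.8% of all genes) and 6 fell (42.9%, against 30.0%), with a median of -0.38. Without TCM replicate 1, 3 rose and 9 fell, and without any other 1 library 1 rose and 4 to 6 fell. With the length trend removed, 3 of the 14 rose and 5 fell, and their median was -0.12. Prpf4b, a kinase of the spliceosome, fell by 1.11 ± 0.12, and Srpk3, a muscle-type SR kinase of low level here, fell by 3.23 ± 0.35. Srpk3 measured 4.36, 5.46 and 4.30 CPM in Vehicle and 0.905, 0.262 and 0.281 CPM in TCM. It met the filter on low counts only through its Vehicle libraries, the group where it is high, so its call is not read as support. Ppp1cc, a catalytic subunit of protein phosphatase 1, measured 49.6, 40.3 and 48.3 CPM in Vehicle and 103, 109 and 107 CPM in TCM and rose by 1.20 ± 0.13 (edgeR adjusted p = 7.49e-05). Of 39 core snRNP proteins and U2 factors, 11 rose (28.2%, near the 28.8% of all genes) and 16 fell (41.0%), with a median of -0.26; leaving out 1 library gave 8 to 14 that rose and 12 to 18 that fell. Snrpa1, the U2 snRNP A′ protein, rose by 1.11 ± 0.13, and the helicase Dhx8 fell by 0.82 ± 0.12 and the helicase Ddx46 fell by 0.81 ± 0.12. Without the length trend 6 rose and 10 fell, where 24.6% of all genes rose and 27.4% fell.

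Of 29 tested genes among 32 other splicing regulators, 3 rose (10.3%), 6 fell (20.7%) and 20 did not pass (median 0.01), with both shares below those of all genes (28.8% and 30.0%). These counts moved with the library left out: 1 rose and 1 fell without TCM replicate 2, 3 and 3 without TCM replicate 3, 1 and 4 without Vehicle replicate 2, 1 and 5 without Vehicle replicate 3, and 2 and 9 without TCM replicate 1. Esrp2, an epithelial splicing regulator, was at 0.107 ± 0.0425 CPM in Vehicle and 1.87 ± 0.331 CPM in TCM (SD, n = 3) and rose by 4.04 ± 0.36, like Srsf12 from a level near 0. Esrp2 too met the filter on low counts only through its TCM libraries. Rbm5 fell by 0.96 ± 0.12 and Ewsr1 fell by 0.51 ± 0.13. Of 15 factors of nonsense-mediated decay and the exon junction, 2 rose (13.3%) and 6 fell (40%), against 28.8% and 30.0% of all genes (median -0.28). Without TCM replicate 2 or 3, 1 rose and 4 fell, and without TCM replicate 1, 4 rose and 8 fell. Smg1, the kinase that starts this decay, fell by 1.19 ± 0.14, Smg6, its endonuclease, fell by 0.77 ± 0.12, and Smg9, a partner of Smg1, rose by 0.55 ± 0.11. With the replicate block, 5 rose and 11 fell among the other regulators, 4 rose and 9 fell among the kinase list, and 4 rose and 8 fell among the decay factors, where 36.3% of all genes rose and 37.0% fell.

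**Figure D5:**
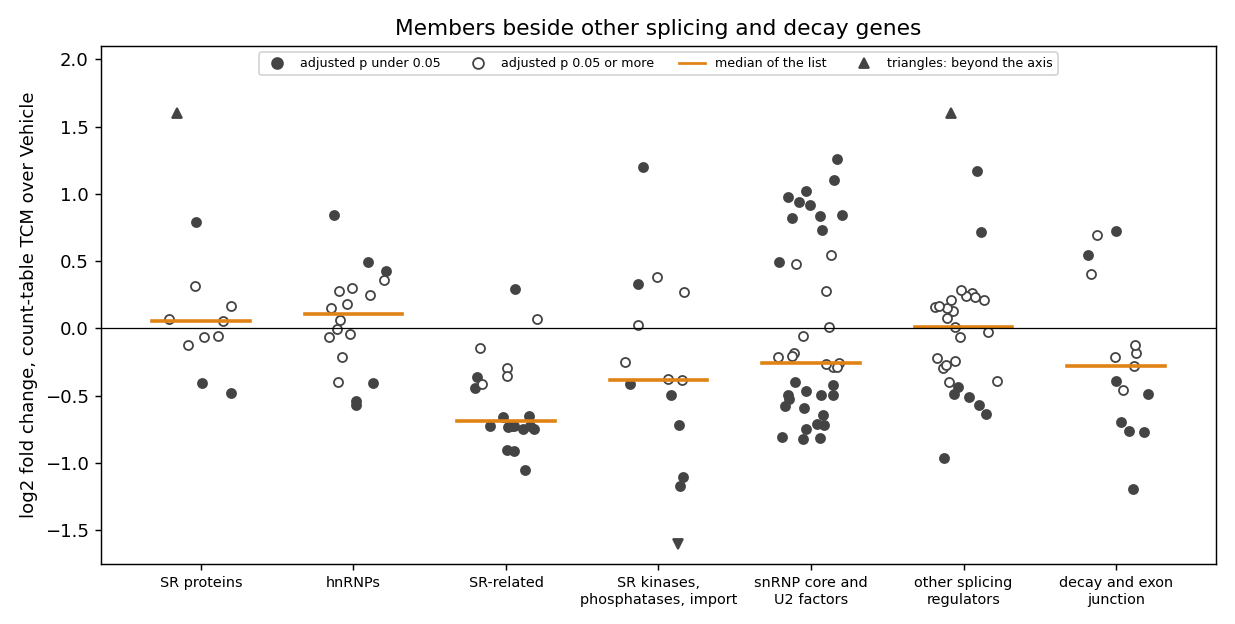
Log2 difference (count-table TCM minus Vehicle) of each tested gene, by list; filled points passed the test, orange bars are list medians and triangles mark genes beyond the axis. The SR-related list has its median at -0.69, while the SR and hnRNP members have theirs at 0.06 and 0.11.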

How the data were processed

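RNA of 6 libraries, 3 per group, was read from 2 tables of the whole series. Values in the deposited count table are whole, unnormalized counts of exon reads for each gene symbol. The deposited normalized table holds a signal, which its values show to be gene counts divided by the authors by 1 factor per library. The build mm10, STAR 2.7.2d and DESeq2 1.28.1 were used, per the submitters' processing notes. Neither the roles of these tools nor the annotation or strandedness is given in the sources used here. Reads of overlapping genes thus cannot be told apart (among them Hnrnpu with Cox20, Hnrnpm with March2, Srsf2 with Mettl23 and Mfsd11, Hnrnpk with Rmi1, Hnrnph3 with Rufy2). The 92 spike-in rows, all at 0, were left out. Among normalized values above 0, 100% came out as whole reads at a tolerance of 0.1 reads; edgeR on those reads, by that table's titles, called 3726 genes higher and 3584 lower.

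Genes kept by filterByExpr were scaled by TMM and tested with edgeR 4.0.16 (quasi-likelihood, group as the sole term, R 4.3.3) with Benjamini-Hochberg adjustment over 12423 genes. CPM are scaled by TMM; errors of log2 differences are standard errors. Level per length divides CPM by the median length of complete coding transcripts in GENCODE M21. Near-identical copies were sought with BLAST 2.17.0 (95% identity, 300 bases). The script was tested on simulated data. The smallest depth, 17166687 counts, limits precision for genes of few counts such as Srsf12. Chi-square per gene between replicates of a group was 4.87 to 104, above sampling noise, and none was counted as a duplicate.

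Members and lists were chosen with earlier results of these data known. Each member is named; up to 5 rises and 5 falls that passed with a mean log2 CPM not under 3 are given by library, as are the 3 members highest per length, and each pathway list gives the 3 genes of smallest p. Srsf12 lies below that level and was added as the remaining call; Rnps1, Hnrpdl, Hnrpll, Sfrs18 and the neighbours of Srsf12 were named after their values were seen. Deviations of same-numbered libraries from their group means correlated at 0.60, 0.15 and 0.36. Vehicle replicate 2 correlated more with TCM replicate 3 (0.42), and TCM replicate 2 more with Vehicle replicate 3 (0.27). Replicates 2 and 3 are thus not shown to pair, and the numbers were used as a block in alternative fits only. Alternatives were library totals, RLE factors, DESeq2 1.42.0, no filter, the replicate block, each library left out, both replicate 1 libraries left out, and removal of a length trend; the length trend with the block and the GC trend with and without it were chosen after seeing the data.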

Additional observations from a re-analysis of the deposited data

How the results depend on the processing

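The count of members that rose was 5. It was 3 with library totals alone, 3 with the length trend removed, 10 with the replicate block, 8 with the length trend removed and the block, 9 with the GC trend removed and the block, and 12 without replicate 1 in both groups; with 1 library left out it ran from 2 to 6. The count that fell was 5, with 0 to 6 on leaving out 1 library: without TCM replicate 2, 2 members rose (Srsf12 and Hnrnpl) and 0 fell (3 at an unadjusted p under 0.05 in edgeR), and without TCM replicate 3, 2 rose and 1 fell (Hnrnpm). Leaving out Vehicle replicate 2 or 3 gave 3 that rose and 2 that fell, and without Vehicle replicate 1 the falls were 3. The share of all genes tested moved too: 24.6% rose and 27.4% fell with the length trend removed, 19.0% and 31.9% with library totals alone, 36.3% and 37.0% with the block, 36.3% and 37.9% without replicate 1, and 22.7% and 22.3% without TCM replicate 2, where 0 members fell. Over the fits with 1 library left out, 22.7% to 31.9% of all genes rose and 22.3% to 33.2% fell. Fewer samples are tested in those fits. Why the counts moved was not tested in any setting. The other settings (RLE factors, DESeq2, no filter, GC trend removed) gave 4 to 7 that rose and 4 or 5 that fell. Of all genes, 30.2% rose and 28.6% fell with RLE factors, and 25.7% and 23.4% with DESeq2. The shares were 22.5% and 23.2% with no filter, and 27.6% and 31.3% with the GC trend removed. With the block as well, they were 33.0% and 35.9% without the length trend, and 34.7% and 38.6% without the GC trend. By the normalized table's titles 5 members rose and 5 fell with directions exchanged.

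The members' median log2 difference was 0.06 and became -0.16 under library totals alone. The same setting turned Srsf4 (-0.039), Hnrnpd (-0.158), Hnrnpul1 (-0.022), Srsf1 (-0.171), Srsf3 (-0.164) and Hnrnph2 (-0.072). Removing the length trend turned Hnrnpd (-0.0791, and -0.0792 with the block), and removing the GC trend turned Srsf3 (-0.025, and -0.028 with the block) and Hnrnph3 (0.0135, and 0.0125 with the block). Hnrnph3 was also turned by RLE factors (0.033), by DESeq2 (0.026) and, with Hnrnpa2b1 (0.065) and Srsf7 (0.060), by leaving out both replicate 1 libraries (0.131). Over the fits that leave out 1 library, the range was -0.153 to 0.176 for Hnrnpa2b1, -0.161 to 0.014 for Hnrnpf, -0.068 to 0.085 for Hnrnph3, -0.116 to 0.031 for Srsf5 and -0.149 to 0.086 for Srsf7. No member that passed the test was turned by an alternative that kept the count table's titles. With the block, SR-related falls were 17 of 20, where 37.0% of all genes fell. The block ended no member's call.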
